A study of Mus musculus with 16 samples.

Results

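In these data 8 livers taken 30 days after tamoxifen carry a replicate number, 1 or 2, and the contrast described here is that number. It sets the 4 livers numbered 1 against the 4 numbered 2, paired by group, and uses 8 of the 16 libraries of the series. The members were chosen by the replicate number in the labels, with earlier results of these data known. The series holds polyA RNA sequencing of whole mouse liver and of liver tumours, with 2 biological replicates per condition. The 4 groups were WT mice given the vehicle DMSO, Arid1a KO mice given DMSO, WT mice given an agonist, and Arid1a KO mice given the same agonist. All 8 livers came from mice injected with tamoxifen, a drug used to activate inducible Cre recombinases. Arid1a encodes a DNA-binding subunit of the BAF chromatin remodelling complex. The agonist is labelled as acting on NR1L3 and abbreviated TC. That spelling is no receptor symbol, so its target is not stated. The WT agonist livers are titled as 9 days and labelled as 30 days elsewhere, and were taken as 30-day livers. The WT column names carry ALB, which the labels do not explain, and no driver of the gene loss is named. The labels name hepatocytes as the cell type although the RNA came from whole tissue.

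The labels give no clock time of collection, no sequencing run and no date. A difference between the replicate numbers therefore cannot be told apart from a difference in any of these. Nothing in the labels says that a number marks a shared litter, cage or day. The p-values below therefore measure spread within these samples only. For the replicate contrast at 30 days that is the spread of the 4 pair differences, each from another group.

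The circadian clock of a liver cell is a loop of transcription. BMAL1, encoded by Arntl, pairs with CLOCK or NPAS2, and the pair binds E-box motifs and switches on the Period and Cryptochrome genes, the REV-ERB genes Nr1d1 and Nr1d2, and Dbp. PER and CRY proteins then inhibit the pair. REV-ERB proteins repress Arntl, Npas2 and Nfil3 through RORE motifs, which ROR receptors activate. DBP, TEF and HLF activate D-box motifs, which NFIL3 represses. In the liver of mice, which are active at night, the RNA of Arntl and Npas2 is high around dawn and that of Dbp and the Period genes late in the day and at dusk. The clock genes were therefore read in these arms, called the dawn arm (Arntl, Npas2, Clock, Nfil3 and Cry1) and the day-to-dusk arm.

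The promoter windows of the clock genes show which of these motifs lie near their starts. Each window runs from 250 bases before to 50 after an annotated start (RefSeq, GRCm38.p6), and matches were sought on both strands. The E-box searched was CACGTG, the D-box TTATGTAA or TTACGTAA, and the RORE TAGGTCA or TGGGTCA. Of 32851 windows in the whole table, 7.15% held the E-box, 1.06% a D-box and 6.45% a RORE, and of the 27025 genes these belong to, 8.09%, 1.23% and 7.35% had at least 1 such window. Of the 18 clock genes, 15 had a window. In the dawn arm 2 of 5 genes held a RORE and 1 an E-box, and in the day-to-dusk arm 4 of 10 held an E-box and 1 a D-box. For 6 of the genes called below, 1 window each that holds a match is printed from 5′ to 3′ on the strand of the gene, with the motif in capitals. Bhlhe41, with an E-box 153 bases before the start, and another window of Tef, with an E-box 138 bases before its start, are not printed. Arntl lies at chr7:113207261-113207560 (plus strand) and has a RORE that begins 31 bases after the start. Nfil3 at chr13:52980990-52981289 (minus strand) has a RORE that begins 12 bases before it.
Arntl: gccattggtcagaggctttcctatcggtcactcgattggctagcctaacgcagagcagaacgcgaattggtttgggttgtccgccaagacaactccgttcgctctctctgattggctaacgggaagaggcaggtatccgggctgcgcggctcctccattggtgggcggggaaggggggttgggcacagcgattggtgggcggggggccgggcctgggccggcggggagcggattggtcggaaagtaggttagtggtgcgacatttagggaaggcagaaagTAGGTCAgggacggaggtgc
Nfil3: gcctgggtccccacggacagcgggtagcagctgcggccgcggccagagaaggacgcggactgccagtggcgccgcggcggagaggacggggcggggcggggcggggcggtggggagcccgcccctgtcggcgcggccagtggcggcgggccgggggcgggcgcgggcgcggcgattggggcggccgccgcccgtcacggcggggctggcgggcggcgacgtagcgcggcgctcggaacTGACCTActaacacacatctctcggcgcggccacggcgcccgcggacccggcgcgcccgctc
Ciart at chr3:95882179-95882478 (minus strand) has 3 E-boxes, which begin 116, 58 and 44 bases before the start. Per1 at chr11:69098699-69098998 (plus strand) has 1 E-box at 166 bases and Tef at chr15:81802423-81802722 (plus strand) has 1 at 127 bases before it.
Ciart: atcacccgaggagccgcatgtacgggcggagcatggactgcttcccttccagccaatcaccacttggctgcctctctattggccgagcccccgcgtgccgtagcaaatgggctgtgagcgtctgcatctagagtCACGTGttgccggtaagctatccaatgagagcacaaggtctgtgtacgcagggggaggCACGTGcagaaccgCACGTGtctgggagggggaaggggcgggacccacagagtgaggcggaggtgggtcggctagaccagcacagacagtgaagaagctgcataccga
Per1: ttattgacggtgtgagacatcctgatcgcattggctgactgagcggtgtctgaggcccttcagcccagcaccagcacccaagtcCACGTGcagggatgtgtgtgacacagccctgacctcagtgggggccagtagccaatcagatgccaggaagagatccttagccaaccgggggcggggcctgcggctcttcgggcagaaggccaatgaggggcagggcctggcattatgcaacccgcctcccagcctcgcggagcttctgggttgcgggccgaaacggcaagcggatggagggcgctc
Tef: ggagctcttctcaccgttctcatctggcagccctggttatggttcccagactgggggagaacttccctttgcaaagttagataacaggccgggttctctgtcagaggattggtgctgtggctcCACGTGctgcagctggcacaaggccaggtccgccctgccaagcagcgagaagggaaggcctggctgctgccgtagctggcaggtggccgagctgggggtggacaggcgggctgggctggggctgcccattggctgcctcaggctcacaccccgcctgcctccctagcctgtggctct
Per3 at chr4:151044616-151044915 (minus strand) has 2 D-boxes of the same spelling, at 205 and 158 bases before the start.
Per3: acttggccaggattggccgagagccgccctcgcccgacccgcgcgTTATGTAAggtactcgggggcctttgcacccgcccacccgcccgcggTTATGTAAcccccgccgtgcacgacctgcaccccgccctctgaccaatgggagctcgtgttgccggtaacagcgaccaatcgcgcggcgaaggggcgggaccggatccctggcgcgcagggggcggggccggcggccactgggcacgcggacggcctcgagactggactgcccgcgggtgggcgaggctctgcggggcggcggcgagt
The windows of Dbp, Hlf, Npas2, Nr1d1, Nr1d2, Cry2 and Clock held none of these letters, nor did another window of Arntl and another of Per1. A match is a description of the sequence only.

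Levels below are CPM, which are counts scaled to library depth, with TMM factors, and 4 values are always listed in the order WT vehicle, Arid1a KO vehicle, WT agonist, Arid1a KO agonist. Differences are replicate 2 minus replicate 1 on the log2 scale, from a fit of group and replicate number in edgeR. Each comes with its standard error (SE) and with a quasi-likelihood p adjusted over 15950 genes. Genes counted as called when that p was under 0.05. Total counts were 9.38 to 13.2 M in the replicate 1 livers and 24.3 to 29.8 M in the replicate 2 livers, with no overlap. The level that 3 counts correspond to was 0.227 to 0.32 CPM in replicate 1 and 0.101 to 0.123 CPM in replicate 2. Pseudogenes took 0.308 to 0.448% of counts in replicate 1 and 0.266 to 0.317% in replicate 2. Mitochondrially encoded genes took 1.79 to 2.26% and 1.29 to 1.66%. Replicate 2 was the deeper library in 8 of 8 pairs of the whole series and had the lower pseudogene share in 8 of 8, tumours included. A count over the whole of Arid1a includes exons outside any deleted part and checks no genotype label.

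**Figure D1:**
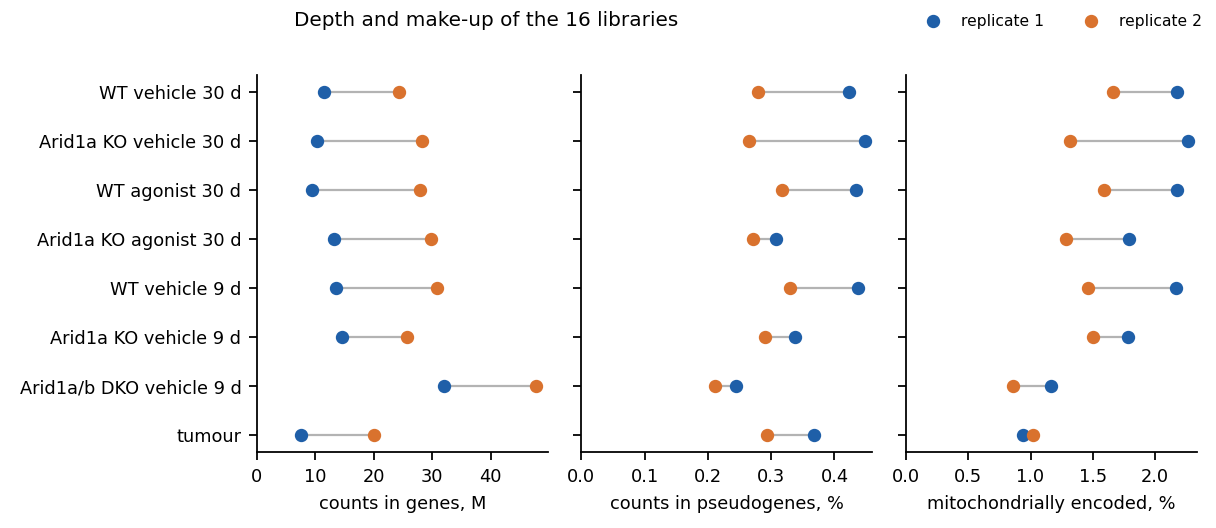
Total counts (M), pseudogene share and mitochondrially encoded share of counts (%) in each of the 16 libraries, with a line joining the 2 libraries of a group. Replicate 1 lies to the left in depth in all 8 groups, and to the right in pseudogene share in all 8 groups.

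Of the 18 clock genes, 14 were called, where 10.4% of all genes tested were called. The clock lists, outputs included, were chosen with earlier results of these data known, so their counts are a description only. The dawn arm was lower in replicate 2 for 4 of 5 genes (4.48% of all genes were called lower). The day-to-dusk arm was higher in replicate 2 for 10 of 13 genes (5.97% of all genes were called higher). No clock gene was called against the direction of its arm. The median log2 was -1.69 in the dawn arm and 1.585 in the day-to-dusk arm, against -0.0012 over all genes tested. In 11 of the 18 genes the 4 replicate 1 livers and the 4 replicate 2 livers did not overlap at all, 4 of them lower and 7 higher in replicate 2. Over all genes 6.18% were lower and 8.46% higher without overlap.

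Arntl, which encodes BMAL1, had the lowest log2 of the 18 clock genes. It lies on chromosome 7 at 113207465 to 113314126 (GRCm38). In replicate 1 it stood at 19.0, 60.3, 10.8 and 29.6 CPM, and in replicate 2 at 1.31, 1.57, 0.839 and 2.55 CPM. Every replicate 1 liver was above every replicate 2 liver, and in both sets the Arid1a KO liver was above the WT liver of the same treatment. The fitted difference was called (log2 -4.10, SE 0.32, edgeR adjusted p = 0.0163; lower in 4 of 4 pairs).

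Npas2, the alternative partner of BMAL1, stood at 3.07, 8.79, 1.81 and 10.8 CPM in replicate 1. In replicate 2 it stood at 0.227, 0.0729, 0.599 and 0.959 CPM (log2 -3.67, SE 0.72, edgeR adjusted p = 0.0355; lower in 4 of 4 pairs). The replicate 2 value of Arid1a KO with vehicle is below what 3 counts correspond to, so the size of that pair difference is poorly measured. Clock, the usual partner of BMAL1, had a smaller difference. Its levels were 120.2, 118, 109.9 and 86.0 CPM in replicate 1 and 35.6, 30.9, 33.3 and 43.2 CPM in replicate 2 (log2 -1.61, SE 0.16, edgeR adjusted p = 0.0174). On a log scale the 4 livers within a set were closer to each other for Clock than for Arntl or Npas2.

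Nfil3, the repressor at D-boxes, stood at 27.4, 59.5, 19.0 and 21.3 CPM in replicate 1 and 16.1, 7.18, 8.79 and 5.95 CPM in replicate 2 (log2 -1.69, SE 0.38, edgeR adjusted p = 0.0452). The highest level was that of the Arid1a KO vehicle liver of replicate 1, and the sets did not overlap. Cry1, an inhibitor of the CLOCK pair whose RNA peaks later than the other Cryptochrome, was not called. It stood at 15.9, 23.9, 7.73 and 14.9 CPM in replicate 1 and 15.5, 10.2, 13.7 and 8.40 CPM in replicate 2 (log2 -0.35, SE 0.34, edgeR adjusted p = 0.528), and the sets overlapped.

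**Figure D2:**
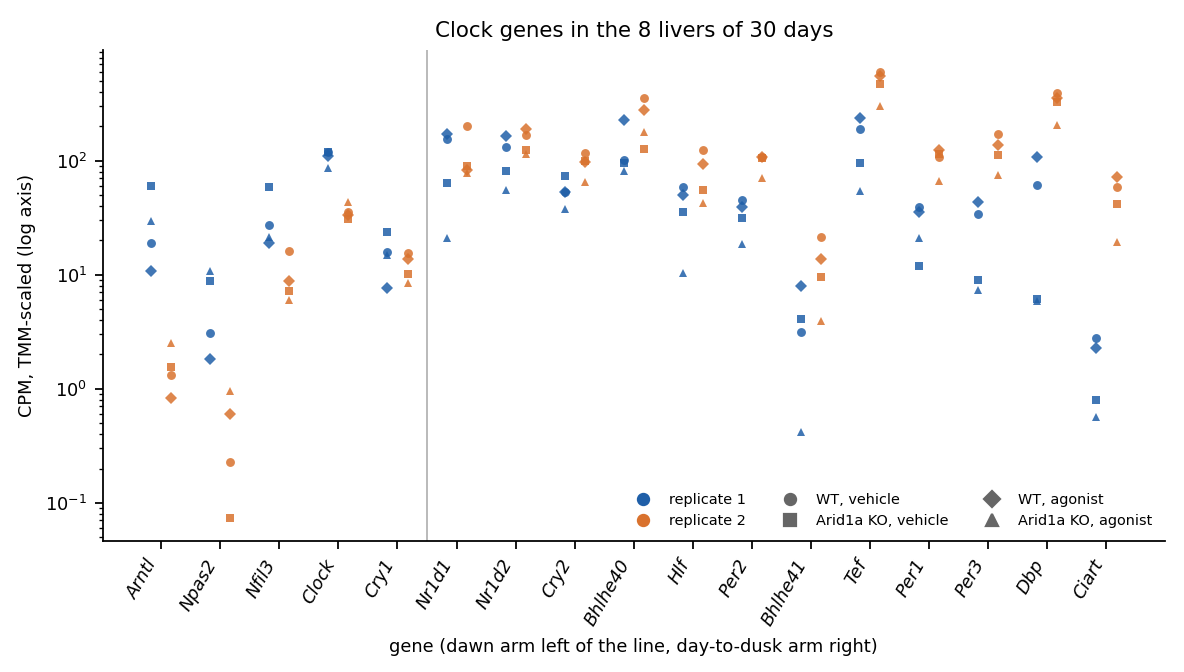
Level of 17 clock genes (CPM, log axis) in the 8 livers of 30 days, by replicate number (colour) and group (symbol). Replicate 2 lies below replicate 1 for Arntl, Npas2, Nfil3 and Clock, and above it for Ciart, Dbp, Per1, Per2, Per3 and Tef, with no overlap in these 10 genes.

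In the day-to-dusk arm the highest log2 was that of Ciart, which encodes CHRONO, a repressor of the CLOCK and BMAL1 pair. It lies on chromosome 3 at 95878503 to 95882251 (GRCm38). Ciart stood at 2.78, 0.799, 2.29 and 0.561 CPM in replicate 1 and at 58.4, 41.5, 72.2 and 19.4 CPM in replicate 2. The lowest replicate 2 liver was above the highest replicate 1 liver (log2 4.93, SE 0.21, edgeR adjusted p = 0.0024; higher in 4 of 4 pairs). Its adjusted p was the lowest of the 18 genes.

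The PAR bZIP factors, which activate D-boxes, were all called higher in replicate 2. Dbp, on chromosome 7 at 45705088 to 45710203 (GRCm38), stood at 61.6, 6.16, 108 and 5.89 CPM in replicate 1 and 397, 327, 356 and 207 CPM in replicate 2 (log2 3.70, SE 0.76, edgeR adjusted p = 0.0382; higher in 4 of 4 pairs). The Arid1a KO livers of replicate 1 lay near 6 CPM and the WT livers of that set at 61.6 and 108 CPM, while the 4 livers of replicate 2 were within 207 and 397 CPM. Tef stood at 190.1, 96.3, 236 and 54.8 CPM and 596, 475, 550.1 and 303 CPM in replicates 1 and 2 (log2 1.90, SE 0.23, edgeR adjusted p = 0.0181). Hlf stood at 59.2, 35.5, 49.6 and 10.4 CPM and 125, 55.0, 94.2 and 42.3 CPM (log2 1.14, SE 0.21, edgeR adjusted p = 0.032). Hlf was higher in replicate 2 in 4 of 4 pairs, although the sets overlapped because both Arid1a KO livers of replicate 2 were below the WT vehicle liver of replicate 1.

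The 3 Period genes, whose proteins inhibit the CLOCK pair, were called higher in replicate 2 with no overlap. Per1 stood at 39.5, 11.99, 35.3 and 20.9 CPM in replicate 1 and 108, 115, 125 and 66.1 CPM in replicate 2 (log2 2.01, SE 0.30, edgeR adjusted p = 0.0234). Per2 stood at 45.2, 31.7, 39.4 and 18.7 CPM and 109, 105, 108 and 71.2 CPM (log2 1.58, SE 0.12, edgeR adjusted p = 0.0163). Per3 stood at 34.0, 9.02, 43.6 and 7.30 CPM and 171, 112, 138 and 75.6 CPM (log2 2.70, SE 0.35, edgeR adjusted p = 0.0198). Within each set the Arid1a KO agonist liver was lowest for Per2 and Per3. Cry2, the other Cryptochrome, was higher in 4 of 4 pairs (log2 0.80, SE 0.12, edgeR adjusted p = 0.0222).

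The REV-ERB genes, which encode nuclear receptors that repress the dawn arm, were not called. Nr1d1 stood at 154, 63.4, 170.5 and 21.1 CPM in replicate 1 and 203, 89.6, 83.4 and 78.6 CPM in replicate 2 (log2 0.43, SE 0.43, edgeR adjusted p = 0.553), and its 4 pairs went in both directions, lower in replicate 2 for WT with agonist. Nr1d2 stood at 133, 81.5, 166 and 55.9 CPM and 168, 124, 189 and 114 CPM (log2 0.53, SE 0.14, edgeR adjusted p = 0.0673; higher in 4 of 4 pairs). Of the DEC repressors, which compete for E-boxes, Bhlhe41 was called (log2 1.84, SE 0.42, edgeR adjusted p = 0.0476) and Bhlhe40 was not (log2 0.91, SE 0.26, edgeR adjusted p = 0.0775). Higher values in 4 of 4 pairs, seen in 12 of the 13 genes of this arm, occurred in 20.5% of all genes tested, and lower values in 4 of 4 pairs, seen in 4 of the 5 dawn genes, in 17.5%.

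Of 9 tested kinases, ubiquitin ligase components and other regulators of the clock proteins 0 were called by edgeR's quasi-likelihood test and 1, Rora, had an unadjusted p under 0.05. Over all genes 10.4% were called and 4800 of 15950 had an unadjusted p under 0.05, so at this list length the counts say little. The kinase gene Csnk1d had a log2 of 0.04 (SE 0.09). The median of these 9 genes was 0.08.

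Genes listed as rhythmic outputs of the clock in liver were called in 13 of 22 cases, 10 higher and 3 lower in replicate 2, with a median log2 of 0.79, where 5.97% of all genes were called higher and 4.48% lower. Usp2, a deubiquitinase, stood at 10.5, 2.17, 12.1 and 3.58 CPM in replicate 1 and 125, 104, 166 and 43.4 CPM in replicate 2 (log2 4.01, SE 0.34, edgeR adjusted p = 0.0168). Wee1, the kinase that holds cells before mitosis, stood at 2.01, 4.79, 5.43 and 17.1 CPM and 47.6, 46.4, 36.9 and 50.8 CPM (log2 2.90, SE 0.46, edgeR adjusted p = 0.0248). Upp2, a uridine phosphorylase of liver, stood at 336, 296, 491 and 76.2 CPM and 1101, 1127, 1716 and 702 CPM (log2 2.15, SE 0.27, edgeR adjusted p = 0.0192). All 3 separated the sets without overlap.

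Por, the electron donor of microsomal cytochromes P450, was at 347, 208, 869 and 535 CPM and 655, 575, 1919 and 1203 CPM (log2 1.17, SE 0.13, edgeR adjusted p = 0.0175), with overlap between the sets and higher values in replicate 2 in 4 of 4 pairs. Tspan4, a tetraspanin, had a log2 of 1.03 (edgeR adjusted p = 0.0181). Cyp7a1, the rate-limiting enzyme of bile acid synthesis, stood at 103 ± 32.5 CPM (SD, n = 4) in replicate 1 and 291 ± 71.0 CPM in replicate 2 (log2 1.51, SE 0.23, edgeR adjusted p = 0.0236). The 3 outputs called lower were Leo1 (log2 -0.88), a subunit of the PAF1 elongation complex, Slc45a3 (log2 -1.35) and the threonyl-tRNA synthetase gene Tars (log2 -1.22). Cyp7a1 and these 3 were picked out after their values were seen.

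**Figure D3:**
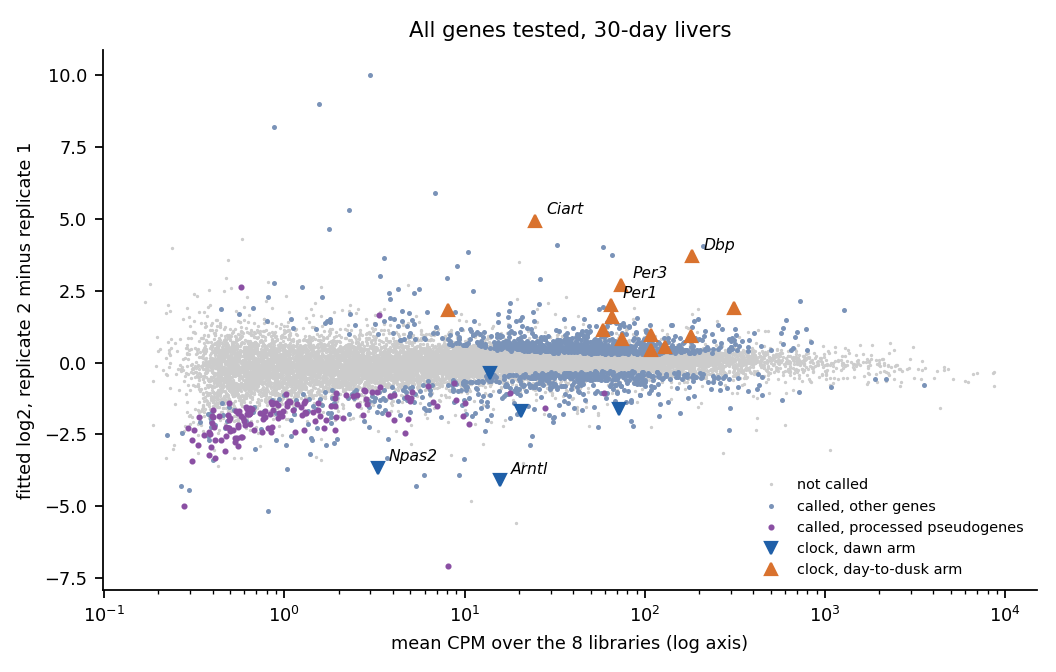
Fitted log2 difference, replicate 2 minus replicate 1, against mean CPM (log axis) for the 15950 genes tested, with the clock arms as triangles and called processed pseudogenes in purple. Ciart and Dbp lie high among genes of their level, Arntl and Npas2 lie low, and the called processed pseudogenes lie almost all below 0.

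Over all genes, clock genes included, 1666 of 15950 were called, 952 higher and 714 lower in replicate 2, and 4800 had an unadjusted p under 0.05. Of the 15 genes named for the highest log2 among those called, 7 were from the clock arms or outputs: Ciart, Usp2, Dbp, Wee1, Per3, Upp2 and Per1. Rgs16, a regulator of G protein signalling, stood at 8.91, 11.8, 75.1 and 29.6 CPM in replicate 1 and 496, 323, 448 and 300.3 CPM in replicate 2 (log2 4.06, SE 0.58, edgeR adjusted p = 0.0222). The set difference for Rgs16 was smallest with agonist, where the replicate 1 livers were higher than with vehicle. Nrg4, a secreted ligand of ERBB receptors, stood at 8.53, 4.22, 16.1 and 12.8 CPM and 26.1, 31.0, 48.7 and 60.4 CPM (log2 2.04, SE 0.23, edgeR adjusted p = 0.0175). Ren1, the renin gene, stood at 2.01, 0.342, 1.09 and 0.0702 CPM and 7.26, 7.62, 5.19 and 3.70 CPM (log2 3.02, SE 0.57, edgeR adjusted p = 0.0327). The replicate 1 value of Arid1a KO with agonist is below what 3 counts correspond to, so that pair difference of Ren1 is poorly measured.

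The other genes named for a high log2 had varied roles. Ccne1, which encodes cyclin E1, stood at 1.15, 0.685, 0.845 and 3.86 CPM in replicate 1 and 5.99, 14.4, 3.23 and 14.3 CPM in replicate 2 (log2 2.54, SE 0.44, edgeR adjusted p = 0.0285). Acot3 (log2 2.42), an acyl-CoA thioesterase, Cyp2g1 (log2 2.41) and the anion exchanger gene Slc4a9 (log2 2.49) were also called higher. These 3 overlapped between sets.

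The 15 genes named for the most negative log2 were taken among called genes with a mean of at least 2 CPM and no pseudogenes, and 2 of them were clock genes, Arntl and Npas2. Dhrs9, a retinol dehydrogenase family member, stood at 13.9, 8.68, 14.1 and 34.0 CPM in replicate 1 and 0.408, 1.02, 1.64 and 5.19 CPM in replicate 2 (log2 -3.35, SE 0.37, edgeR adjusted p = 0.0175). Chka, which encodes choline kinase alpha, stood at 109.7, 208, 64.4 and 160.4 CPM and 38.0, 40.9, 15.5 and 35.0 CPM (log2 -2.04, SE 0.15, edgeR adjusted p = 0.0132). Slc25a30, a mitochondrial carrier gene, stood at 186, 96.5, 157 and 115 CPM and 17.5, 15.3, 54.7 and 48.3 CPM (log2 -2.20, SE 0.37, edgeR adjusted p = 0.0283). The sets did not overlap in these 3 genes.

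Socs2, a feedback inhibitor of growth hormone signalling, stood at 43.0, 87.3, 44.9 and 18.2 CPM and 7.35, 23.9, 17.7 and 4.63 CPM (log2 -1.93, SE 0.20, edgeR adjusted p = 0.0174). The manganese exporter gene Slc30a10 (log2 -2.25), the tight junction gene Cldn1 (log2 -1.86), the Arf regulator gene Asap2 (log2 -2.56), Ypel2 (log2 -2.07), Dtx4 (log2 -1.88), Ikzf4 (log2 -2.24) and Serpina9 (log2 -1.90) were called lower too. The urinary protein genes Mup6 (log2 -2.86) and Mup8 (log2 -2.01) belong to a cluster of near-identical copies among which the counting could split reads, so their values are uncertain.

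Genes that follow feeding gave counts to be read against the 5.97% of all genes called higher and the 4.48% called lower. Of 19 fed-state genes 1 was called, Thrsp (log2 1.49, SE 0.29, edgeR adjusted p = 0.0355), a lipogenic protein gene, and the list median was -0.01. Of 20 fasting genes 4 were called: Foxo1 (log2 0.51) and Angptl4 (log2 0.71) higher, Igfbp1 (log2 -1.05) and Pdk4 (log2 -1.79) lower in replicate 2. Of 22 cholesterol synthesis genes 0 were called by edgeR and 3 had an unadjusted p under 0.05, against 4800 of all 15950 genes.

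Other lists that vary with hour, stress or hormones held 0 to 3 calls each in a direction, against the same 5.97% higher and 4.48% lower over all genes. Of 15 glucocorticoid targets 2 were called higher, Per1 and the metallothionein gene Mt1 (log2 1.52). Of 15 immediate early genes 3 were called higher, the mRNA decay factor gene Zfp36 (log2 1.24), Ier2 (log2 1.02) and Junb (log2 1.40), and the list median was 0.69. Of 21 unfolded protein response genes 3 were called lower, Hyou1 (log2 -0.53), Canx (log2 -0.41) and Sdf2l1 (log2 -0.85). Of 16 heat shock genes 1 was called lower, Hsp90aa1 (log2 -0.86). Of 32 proliferation genes 3 were called higher, Ccne1, Tk1 (log2 1.29) and Rrm2 (log2 1.27). Of 20 acute phase genes 1 was called higher, Hamp (log2 0.56), and 1 lower, Fga (log2 -0.79). Of 30 interferon genes 2 were called lower, Cmpk2 (log2 -1.14) and Rsad2 (log2 -1.17). In the order given, 6, 10, 11, 3, 6, 6 and 6 genes of these lists had an unadjusted p under 0.05. The share over all genes was 4800 of 15950. Lower values in 4 of 4 pairs were found for 8 of the 21 unfolded protein response genes, against 17.5% of all genes.

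Genes with a sex bias in liver were called in opposite directions by list, where 5.97% of all genes were called higher and 4.48% lower. Of 15 male-biased genes 3 were lower in replicate 2, Serpina4-ps1 (log2 -2.35), Cyp4a12a (log2 -1.29) and C6 (log2 -0.79), with a list median of -1.22. Of 14 female-biased genes 5 were higher, among them Acot3 and the sulfotransferase genes Sult2a1, Sult3a1 and Sult2a5, with a list median of 0.95. The last 3 had 0 counts in some livers of both sets and near-identical copies, so their values are uncertain. The 4 Y-linked genes tested were called in 0 cases by edgeR, with 0 at an unadjusted p under 0.05, against 4800 of all 15950. Whether the sex-biased lists follow the clock or another difference between the sets was not tested.

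Of 77 tested markers of cells other than hepatocytes, 18 had an unadjusted p under 0.05, against 4800 of all 15950 genes tested. By edgeR 0 were called higher and 4 lower in replicate 2, a share of 5.19%, near the 4.48% of all genes. These were the stellate cell and fibroblast genes Ngfr (log2 -1.37) and Rgs5 (log2 -0.79) and the beta-globin genes Hbb-bs (log2 -1.31) and Hbb-bt (log2 -1.74), which share sequence. The summed erythroid markers ranged from 175.5 to 587.5 CPM in replicate 1 and 109 to 380 CPM in replicate 2, lower in 4 of 4 pairs. Among them Alas2 had a log2 of -0.09, and Klf1 (log2 0.85) was higher in replicate 2 in 4 of 4 pairs. Summed macrophage markers ranged from 683.5 to 1640 CPM and 232 to 992 CPM, and endothelial markers from 483 to 643 CPM and 253 to 567 CPM. Both sums were lower in replicate 2 in 3 of 4 pairs, with 0 markers of either list called by edgeR. At an unadjusted p under 0.05 were 4 of 11 endothelial and 4 of 14 macrophage markers. The median log2 was -0.67 for endothelial and -0.64 for macrophage markers, against -0.0012 over all genes tested. At 9 days these medians were 0.17 and 0.31. Stellate cell and fibroblast, lymphocyte and cholangiocyte markers had 30-day medians of -0.14, 0.08 and 0.13. The 11 hepatocyte markers had 0 calls by edgeR and 4 at an unadjusted p under 0.05. They summed to 31700 to 49270 CPM in replicate 1 and 28160 to 39100 CPM in replicate 2, lower in 4 of 4 pairs. The markers did not all go with the sum: 5 were lower in 4 of 4 pairs, and Alb (log2 0.56) was higher in 4 of 4. The exocrine pancreas genes Prss1, Amy2a5 and Try4 were at 0 in all 8 livers. In tissue, fewer cells of a type and less RNA per cell cannot be told apart, and the part of these cells in the clock differences was not tested.

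Counts in pseudogenes and mitochondrial genes moved with the replicate number too. Of 552 processed pseudogenes tested 140 were called lower and 2 higher, with a median log2 of -0.92, where 4.48% of all genes were called lower and 5.97% higher. In the 9-day livers the median of such genes was -0.70. Of 12 mitochondrially encoded genes in the list 2 were called lower, mt-Co3 (log2 -3.19) and mt-Co2 (log2 -2.13), both at a few CPM or less, and nuclear copies could share their reads. Of these 12 genes 10 were lower in 4 of 4 pairs, against 17.5% of all genes. An unadjusted p under 0.05 was found for 10 of the 12, against 4800 of all 15950 genes. With protein-coding genes only 1173 genes and 13 of the 18 clock genes were called, and with all 8 libraries thinned to 9.38 M counts 1190 genes and 12 of 18 clock genes were called. Both settings were added after the data were seen. Depth and RNA make-up cannot be told apart from replicate number in this design, in these settings as well.

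**Figure D4:**
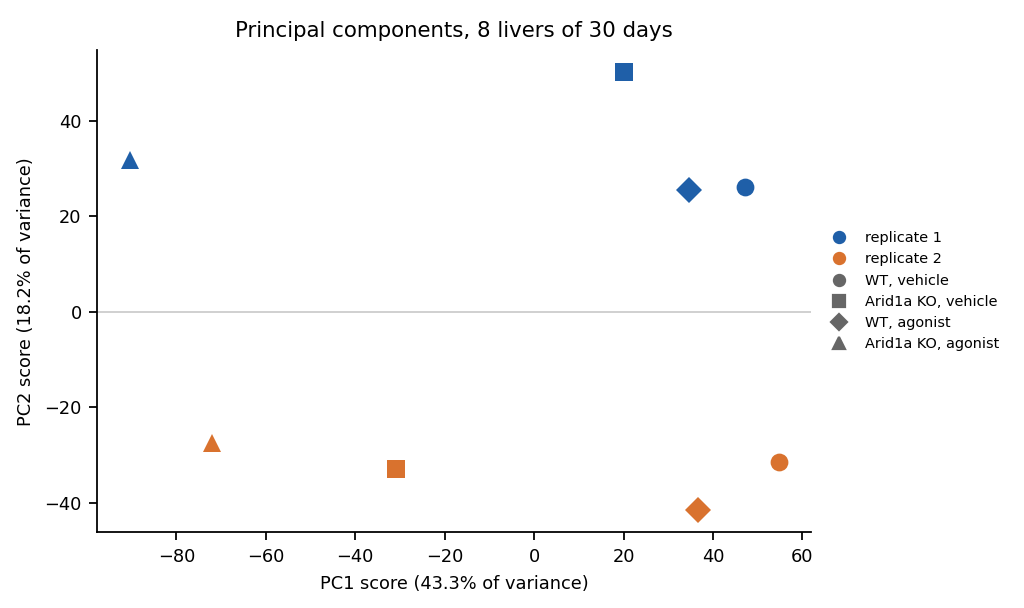
First and second principal component scores of the 8 livers of 30 days, from log2 CPM of all genes tested. The second component, with 18.2% of the variance, puts the 4 replicate 1 livers at 25.4 to 50.2 and the 4 replicate 2 livers at -41.6 to -27.6.

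The first principal component of the 8 livers held 43.3% of the variance and set the Arid1a KO agonist livers apart at -90.4 and -72.0. The second held 18.2% and separated the replicate numbers in all 4 groups. The Arid1a KO vehicle livers differed most between their numbers on the first component, at 20.2 in replicate 1 and -30.95 in replicate 2.

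The number of calls depended on which liver was left out. Without the Arid1a KO vehicle livers of replicate 1 or 2 the counts were 1786 and 1651 genes, and without 1 of the others 0 to 44 genes. Without a WT agonist liver they were 2 and 0, without a WT vehicle liver 36 and 8, and without an Arid1a KO agonist liver 44 and 30. Of the clock genes 14 or 13 were called without an Arid1a KO vehicle liver and 0 to 4 without 1 of the others. The 14 called clock genes kept their direction in 294 of 294 alternative values, of which 125 no longer passed the threshold. Each of these genes had the same sign in 4 of 4 pairs. Refits of the same livers, or of fewer pairs, could thus hardly reverse a direction, and the kept direction is no separate check.

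The pair differences could also be compared between genotypes. The difference of Dbp was 5.72 and 5.13 in the Arid1a KO pairs and 2.69 and 1.73 in the WT pairs. The KO minus WT difference was 3.21 (SE 0.42, edgeR adjusted p = 0.624) and was not called. For Per3 it was 1.50 (SE 0.29) and for Nfil3 -1.52 (SE 0.43). Over all genes 0 were called by edgeR (0% of 15950) and 528 (3.31%) had an unadjusted p under 0.05, while DESeq2 called 29. Of the 18 clock genes 8 had an unadjusted p under 0.05.

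Within replicate 1 the Arid1a KO liver was below the WT liver in 10 of 13 day-to-dusk genes with vehicle and 12 of 13 with agonist. Within replicate 2 it was below in 11 of 13 and 13 of 13. The medians of the KO minus WT log2 were -0.74 and -1.99 in replicate 1 and -0.43 and -0.78 in replicate 2, each from 1 liver against 1, with no replicate check. In the dawn arm 4 of 5 genes were higher in KO in replicate 1 under both treatments. In replicate 2 it was 1 of 5 with vehicle and 3 of 5 with agonist. No share over all genes was worked out for these comparisons of 1 liver with 1, so the counts of both arms have no background.

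Comparisons of groups put both replicate numbers in each group. With the number left out of the fit, 0 of the 18 clock genes were called by edgeR in any of 4 such comparisons, and 1 had an unadjusted p under 0.05, in Arid1a KO against WT with agonist. Arid1a KO against WT called 8 of all genes with vehicle (0.0502%) and 417 with agonist (2.61%). Agonist against vehicle called 5 in WT (0.0313%) and 49 in Arid1a KO (0.307%). With the replicate number as a block the shares of all genes were 0.734%, 9.19%, 0.107% and 1.44% in that order. The clock genes called were then 6 in Arid1a KO against WT with agonist (Tef, Hlf, Nr1d2, Ciart, Per2 and Bhlhe41) and 0 in the others. The labels state no pairing by number.

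Between treatments 1 gene was called (0.00627% of 15950), the serpin gene Serpina3c, and 640 (4.01%) had an unadjusted p under 0.05. Of the 18 clock genes 0 had an unadjusted p under 0.05 in that comparison. Serpina3c stood at 2.20, 163, 0.845 and 0.561 CPM in replicate 1 and 0.318, 44.2, 48.9 and 24.0 CPM in replicate 2 (agonist minus vehicle log2 7.66, SE 0.37, edgeR adjusted p = 0.0445). It has near-identical neighbours in the serpin cluster, so the value is uncertain.

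At 9 days the same replicate contrast, over WT, Arid1a KO and Arid1a/b DKO vehicle livers, called 0 of 17831 genes (0%) by edgeR, and 1638 (9.19%) had an unadjusted p under 0.05. DESeq2 called 105. Of the 18 clock genes 3 had an unadjusted p under 0.05. Dbp stood at 59.1, 95.4 and 47.7 CPM in replicate 1 and 187, 236 and 71.5 CPM in replicate 2 of WT, Arid1a KO and Arid1a/b DKO. Ciart stood at 33.3, 30.3 and 4.68 CPM and 45.2, 24.5 and 2.42 CPM, and Arntl at 8.04, 3.18 and 7.88 CPM and 2.16, 3.08 and 4.47 CPM. In all 6 livers of 9 days Arntl was below the lowest replicate 1 liver of 30 days, and in 5 of the 6 it was above every replicate 2 liver of 30 days. The Arid1a/b DKO livers had less Ciart than the other 9-day livers in both replicates.

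**Figure D5:**
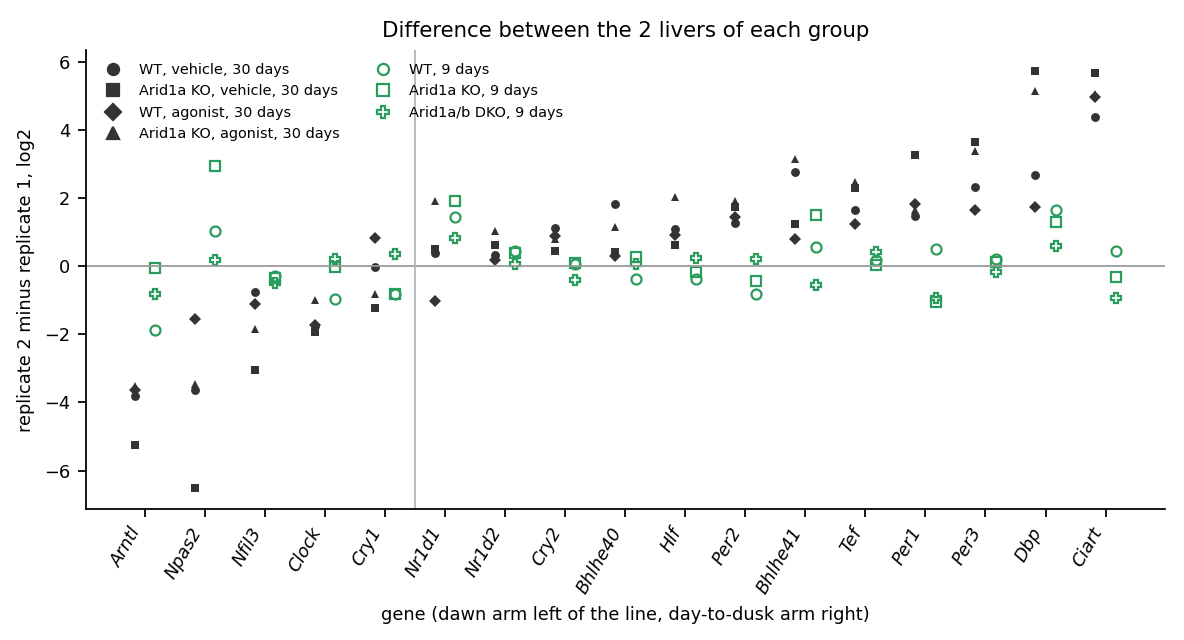
Replicate 2 minus replicate 1 (log2 CPM) for 17 clock genes in the 4 groups of 30 days (black) and the 3 groups of 9 days (green). For Ciart the 30-day pairs lie between 4.38 and 5.66 and the 9-day pairs between -0.95 and 0.44.

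The difference between the 30-day and the 9-day contrasts called 42 genes (0.236% of 17831), 31 higher and 11 lower, and 2857 (16%) had an unadjusted p under 0.05. Of the 18 clock genes 2 were called and 14 had an unadjusted p under 0.05. Ciart was called (log2 5.20, SE 0.39, edgeR adjusted p = 0.00962), and so was Per2 (log2 1.94, SE 0.26, edgeR adjusted p = 0.0356). Among outputs Usp2 (log2 4.07, SE 0.43, edgeR adjusted p = 0.0191) and Por (log2 1.60, SE 0.22, edgeR adjusted p = 0.0356) were called. Arntl (log2 -3.16, SE 0.54, edgeR adjusted p = 0.0706), Per3 (log2 2.66, SE 0.44, edgeR adjusted p = 0.0645) and Dbp (log2 2.54, SE 0.92, edgeR adjusted p = 0.231) were not. The 9-day pairs include Arid1a/b DKO and no agonist livers, and the 30-day pairs the reverse, so time and these groups cannot be told apart.

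Sbk1, a kinase gene, stood at 19.8, 17.5, 27.5 and 32.4 CPM in replicate 1 and 78.8, 65.7, 108 and 121 CPM in replicate 2 (log2 1.94, SE 0.07, edgeR adjusted p = 0.00221), and its time difference was called (log2 1.94, SE 0.26, edgeR adjusted p = 0.0356). Plxna2, a semaphorin receptor gene, stood at 119.7, 142, 94.0 and 96.6 CPM and 41.2, 54.5, 33.5 and 44.9 CPM (log2 -1.38, SE 0.09, edgeR adjusted p = 0.0103), and its time difference was -1.64 on the log2 scale (edgeR adjusted p = 0.00964). Foxq1, a forkhead factor gene, stood at 101, 53.4, 61.5 and 31.2 CPM and 23.3, 15.6, 21.3 and 17.2 CPM at 30 days and at 8.36, 16.4 and 1.58 CPM and 47.4, 32.3 and 3.96 CPM at 9 days, higher in replicate 2 at 9 days and lower at 30 days (log2 -3.17, SE 0.41, edgeR adjusted p = 0.0356). Blm, a DNA helicase gene, was called with a time difference of 1.97.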

How the data were processed

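The authors' deposited counts are whole-number read counts per gene from polyA TruSeq libraries. Reads were processed with fastp, STAR 2.7.3 and featureCounts on GRCm38.p6, per the submitters' processing notes. Neither the annotation release nor a strand setting is given in the sources used here, so overlapping and antisense genes cannot be separated. The deposited normalized signal equals the counts times 1 factor per library (largest relative deviation 7.3e-06). The tables hold 55291 genes, and no row without a gene name.

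Differences were fitted with edgeR 4.0.16 (R 4.3.3): genes were filtered by filterByExpr, libraries scaled by TMM, and quasi-likelihood F tests made with group and replicate number as terms, 8 libraries, 15950 genes and 3 residual degrees of freedom, adjusted by Benjamini-Hochberg. The contrasts by genotype and by treatment had 2 residual degrees of freedom. The contrasts at 9 days and between times used the 14 liver libraries, 17831 genes and 5 residual degrees of freedom. SE is the absolute log2 divided by the square root of F. Pair differences are of log2(CPM + 0.0239). The edgeR fits for the replicate, time, treatment and group contrasts were tested on simulated data; the alternative tools were not.

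Named genes were all members of both clock arms, the 15 called genes with the largest log2 in each direction (mean of at least 2 CPM, the same sign in 4 pairs, no predicted or unnamed genes or pseudogenes), up to 6 per direction in an interaction and up to 4 per list by smallest p. A few list members are counted in the totals of their lists and are not reported here. The members and lists were chosen with earlier results of these data known. The lists are clock dawn arm, day-to-dusk arm, regulators and outputs, fed-state, fasting, cholesterol synthesis, glucocorticoid, heat shock, immediate early, unfolded protein, acute phase, interferon, proliferation, CAR target, male-biased, female-biased, Y-linked, mitochondrial and 11 cell type lists. Of 36 CAR targets 2 were called higher, Por and Cyp2a5, against 5.97% of all genes. Cholangiocyte, lymphocyte, neutrophil, exocrine pancreas, adipocyte, and gallbladder and intestine markers had 0 calls by edgeR, with 0, 1, 2, 0, 1 and 0 genes at an unadjusted p under 0.05. Over all genes 4800 of 15950 had such a p.

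Alternatives were RLE scaling, other low-count filters, DESeq2 1.42.0, limma-trend (limma 3.58.1) on the authors' normalized values, all 14 livers, no group term, subsets of pairs, a replicate block in comparisons of groups, and leaving out each library. Promoter sequences are RefSeq's and gene positions GENCODE M21's, which matched 96.4% of symbols. Figures used matplotlib 3.10.9 (Python 3.11.15).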

Additional observations from a re-analysis of the deposited data

Results flagged for a closer look

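There were 4 pair differences that stood apart from the other 3 of the same gene by a gap test that flags about 1 in 20 sets of 4 by chance, among 42 genes examined. These were Usp2 in the Arid1a KO vehicle pair (log2 5.57, against 3.78 in the nearest pair) and Upp2 in the Arid1a KO agonist pair (3.20 against 1.93). The others were Dhrs9 in the WT vehicle pair (-5.01 against -3.09) and Asap2 in the Arid1a KO vehicle pair (-3.39 against -2.36).

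The replicate difference of 12 named genes differed between 30 and 9 days by edgeR's test of that difference. It was higher at 30 days for Ciart (log2 5.20), Usp2 (4.07), Blm (1.97), Per2 (1.94), Sbk1 (1.94) and Por (1.60). It was lower for Foxq1 (-3.17), Asap2 (-2.54), Gbp6 (-2.10), Dtx4 (-1.99), Plxna2 (-1.64) and Trim30a (-1.63). Gbp6 and Trim30a belong to families of close copies and are uncertain. The replicate difference of Serpina3c differed between treatments (log2 7.66).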

How the results depend on the processing

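The 1666 genes called between replicate numbers at 30 days became 520 without the group term, 378 in the WT pairs, 125 in the agonist pairs, and 0 in the vehicle pairs and in the KO pairs, where fewer samples were fitted. RLE scaling (1540), no low-count filter (1898), a minimum of 1 CPM in 4 libraries (1534), DESeq2 (2317), limma-trend (1578) and all 14 livers (1622) stayed within 1.5 times. The 14 called clock genes became 6 without the group term, 4 in the agonist pairs, 0 in the vehicle pairs and 0 in the KO pairs, and 11 in the WT pairs. Leaving out 1 library gave 0 to 1786 genes and 0 to 14 clock genes. Reversed values concerned 2 clock genes that were not called: Cry1 was 0.35 and Nr1d1 -0.33 in the WT pairs. With 1 library left out Nr1d1 ranged from -0.032 to 0.93 (below 0 without an Arid1a KO agonist liver), and the time difference of Cry1 from -0.27 to 0.48 (below 0 in 8 of the settings). The cause was not tested.

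Without a filter and with DESeq2 the counts were 26 and 35 by treatment (1 in the fit reported), 18 and 29 by genotype (0), 23 and 105 at 9 days (0), and 360 and 839 between times (42). Leaving out 1 library gave 0 to 260 by treatment, 0 to 296 by genotype, 0 at 9 days and 0 to 28 between times.

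Comparisons of groups changed with the replicate block. Without it Arid1a KO against WT called 8 genes with vehicle and 417 with agonist, and agonist against vehicle called 5 in WT and 49 in Arid1a KO. With the replicate block these were 117, 1466, 17 and 230, and the 8, 417, 5 and 49 genes were among them. The labels give only a shared number. The 4 groups' pair differences, which share the depth gap of their sets, correlated with Pearson's r of 0.183 to 0.388 over 15950 genes. Some values outside these groups lay in that range. The 30-day Arid1a KO vehicle pair had 0.207 with 9-day WT and 0.191 with 9-day Arid1a KO. The 30-day Arid1a KO agonist pair had 0.211 with the tumours. All other values with a 9-day or tumour pair were below 0.183. For the comparisons of groups, in the order above, DESeq2 gave 365, 1471, 122 and 583. No filter gave 857, 2279, 370 and 1216, and all 14 livers 92, 883, 5 and 155. RLE scaling gave 29 for KO against WT with vehicle. Leaving out 1 library gave 0 to 111, 1 to 868, 0 to 17 and 5 to 203.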
